A study of Mus musculus with 12 samples.

Results

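Transcript counts of mouse embryonic fibroblasts (MEFs) were used to compare cells expressing NRAS with arginine at codon 61 (TN61R/R) with cells expressing the wild-type glutamine (TN61Q/Q). The comparison used 6 of the 12 libraries of the series, 3 per genotype, selected by the genotype label, and all genes of the count table entered it, with those too low to test set aside. Both groups were C57BL/6 MEFs prepared from embryos homozygous for an LSL-Nras allele and for the Tyr::CreERT2 transgene (TN). LSL is a stop cassette flanked by loxP sites, so no Nras is made from the allele until Cre removes it. In both groups, passage 3 cells were infected with Ad5-CMV-Cre-eGFP, an adenovirus that carries Cre, and were cultured for 6 more days in DMEM with serum before total RNA was isolated. The 61Q allele had been made by CRISPR-Cas9 editing of TN61R/R zygotes, so the groups share the cassette, the Cre transgene and the adenovirus and were made to differ at the codon itself. The Tyr promoter drives CreERT2 in melanocytes, and Cre in the MEFs came from the adenovirus. The study describes the 3 libraries of a genotype as biological replicates. Cultures of MEFs are mixed mesenchymal cells of whole embryos, and in such bulk samples fewer cells of a type and less RNA per cell cannot be told apart.

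NRAS is a small GTPase that signals while bound to GTP. Glutamine 61 takes part in GTP hydrolysis, and its replacement by arginine keeps the protein in the GTP-bound state, in which it engages RAF kinases and drives the MEK and ERK kinases. ERK activity induces genes that shape the response, among them the ETS factors of the ETV4 group, AP-1 subunits and cyclin D1, and also the Sprouty, SPRED and DUSP proteins that restrain the pathway. Nras lies on chromosome 3 (GRCm38), and codon 61 is in exon 3 of the 7 exons of the annotated transcript Nras-201, within a coding sequence of 188 codons.

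Nras was expressed in all 6 libraries. It was read at 96.6, 105 and 95 in 61Q/Q and 107, 124 and 116 in 61R/R (CPM, the count scaled by edgeR to a common library total after TMM normalization). All 61R/R libraries lay above the 61Q/Q libraries, but the difference of 0.23 on the log2 scale (standard error 0.08) did not pass the test (edgeR quasi-likelihood test, adjusted p = 0.0673). Gene-level counts carry no information on the codon, so the level of Nras checks expression of the locus and not the genotype. Throughout, values of a gene are given for 61Q/Q replicates 1, 2 and 3 first and then for 61R/R replicates 1, 2 and 3. Replicate numbers are those of the sample descriptions. The column names of the deposited counts number the 61Q/Q libraries differently, in the same ascending order. Log2 fold changes are 61R/R minus 61Q/Q.

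The libraries held 74585225 to 86641284 counts in 61Q/Q and 84659199 to 86593644 in 61R/R. The ribosomal RNA precursor Rn45s took 8.89% to 11.7% of them in 61Q/Q and 11.8% to 13.9% in 61R/R. The libraries did not separate evenly by genotype. Replicate 1 of 61R/R and replicate 2 of 61Q/Q were the most alike of all 15 pairs among the 6 libraries (Spearman's rho over genes 0.998, against 0.976 to 0.996 for the other pairs). On an axis that puts the 61Q/Q mean at 0 and the 61R/R mean at 1 over the called genes, the 61Q/Q libraries lay at −0.15, 0.31 and −0.15 and the 61R/R libraries at 0.62, 1.24 and 1.14. By Xist and 4 Y-linked genes, 61Q/Q replicate 1 and 61R/R replicate 2 came from female embryos and the other 4 from male embryos, so sex was balanced between the genotypes. Fibroblast markers were abundant, with 10 of 10 detected and a summed level of 29785 to 40943 CPM in 61Q/Q and 15331 to 25248 in 61R/R. Col1a1, Col1a2 and Col3a1 made up most of these sums, and over the 10 markers 5 were higher and 5 lower, with a median of −0.13 and a mean log2 CPM of 8.86, 9.06 and 9.11 in 61Q/Q and 8.92, 8.67 and 8.79 in 61R/R. Macrophage markers were also detected, at a summed 270 to 405 CPM in 61Q/Q and 163 to 299 in 61R/R, with 15 of 15 above 0 and 1 of 15 passing the test (Aif1, −1.88, and −2.56 without 61R/R replicate 1). Of the 15 log2 fold changes, 14 were negative, with a median of −0.73. In 8 of 15, 61R/R lay below without overlap, beside 19.2% of all genes. Their mean log2 CPM was 3.86, 3.25 and 3.93 in 61Q/Q and 3.08, 2.36 and 3.22 in 61R/R. Summed epithelial markers were at 16.6 to 21.7 CPM in 61Q/Q and 28.9 to 42.6 in 61R/R, but the mean log2 CPM of the 7 tested overlapped, at −0.55, −0.50 and −0.59 in 61Q/Q and −0.93, −0.0013 and −0.22 in 61R/R (4 higher and 3 lower, 1 passed, Krt18). Mesothelial markers were at 14.2 to 20.5 and 30.1 to 53.8 (1 of 7 in the table passed, Msln), and chondrocyte markers at 81.7 to 179 and 84.8 to 90.3 (1 of 11 passed, Acan). The part of these markers in the differences below was not tested. Of 9 endothelial markers, only Cldn5 was at 0 in all 6 libraries. Summed endothelial markers were at 11.003 to 13.283 CPM in 61Q/Q and 12.644 to 14.847 in 61R/R (1 of 7 tested passed, as higher). Glia and neuron markers were at 37.6 to 59.1 and 26.4 to 39.9 (of 9 tested, 1 higher and 1 lower). Of 9 erythroid and liver markers, the globin genes Hba-a1, Hba-a2, Hbb-bs and Hbb-bt were at 0 in all 6 libraries. Of the skeletal muscle, melanocyte and adipocyte markers, 0 were at 0 in all 6 libraries and 0 passed.

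Of 15759 genes tested, 2997 (19%) differed between the genotypes at an adjusted p under 0.05, which is what "passed", "rose" and "fell" mean for a gene below. Of these, 1486 (9.43%) were higher and 1511 (9.59%) lower in 61R/R. Counted with a change of at least 1.5-fold as well, 1229 genes (7.8%) were called, 616 (3.91%) higher and 613 (3.89%) lower. The 3 libraries of one genotype lay entirely to one side of the other in 5845 genes (37.1%), with 61R/R above in 17.9% and below in 19.2%. The smallest adjusted p was 0.0194, which 457 genes shared, and the median log2 fold change over all genes tested was 0.01. The test drew its estimate of spread from all 12 libraries of the series. When only the 6 libraries of the comparison were fitted, 0 genes passed (smallest adjusted p 0.0787, with 5170 genes at an unadjusted p under 0.05). Likewise, 0 genes passed in each of the 4 fits that lacked 1 of 61Q/Q replicates 1 and 3 and 61R/R replicates 2 and 3 (smallest adjusted p 0.0814 to 0.0986, with 3960 to 4143 genes at an unadjusted p under 0.05). Leaving out 61Q/Q replicate 2 gave 1945 called genes, leaving out 61R/R replicate 1 gave 1992, and leaving out both gave 2583. At an adjusted p under 0.05 alone, 4538 of 15986 genes passed without 61Q/Q replicate 2 and 4358 of 15988 without 61R/R replicate 1. Without both, 5590 of 15938 passed. Member counts given below for these fits stand beside these larger totals and not beside the 19%. DESeq2 called 1580 genes with all libraries. The counts of members that passed, below, hold for the fit of all 12 libraries and would be 0 in the 5 fits that gave no calls.

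**Figure D1:**
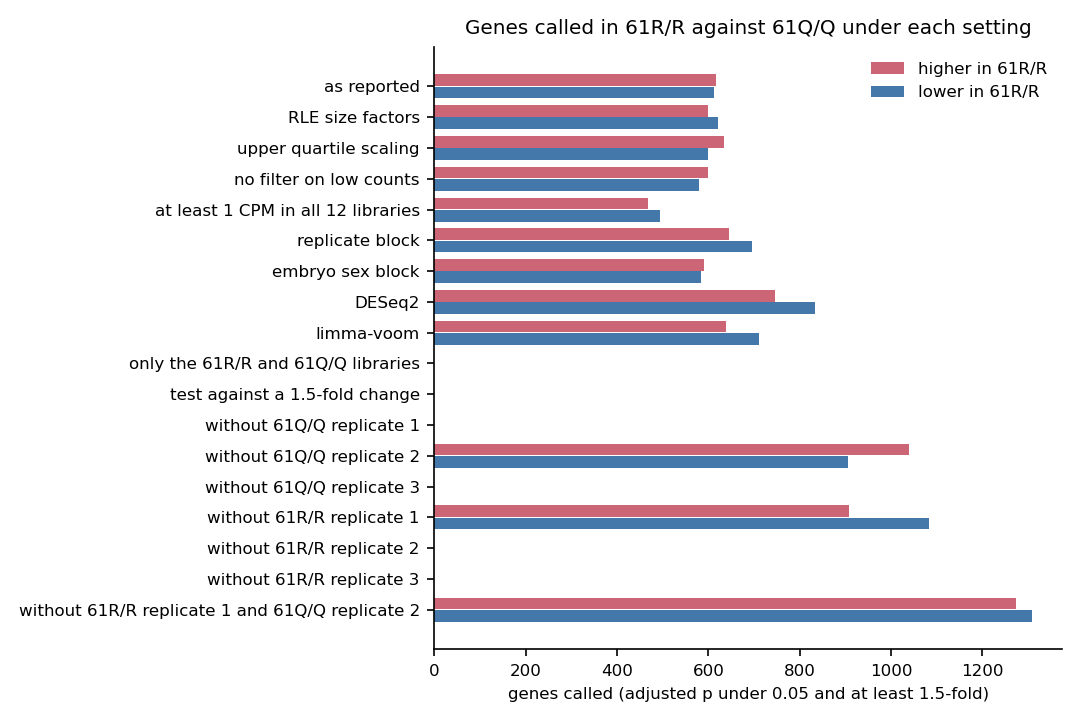
Number of genes called (x axis, adjusted p under 0.05 and at least 1.5-fold) as higher (red) or lower (blue) in 61R/R than in 61Q/Q under each setting (y axis). The count was 616 and 613 as reported, 0 with only the 6 libraries and 0 against a 1.5-fold threshold, and 1274 and 1309 without 61R/R replicate 1 and 61Q/Q replicate 2.

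Called genes were mostly changed by less than 4-fold. Among those higher in 61R/R, 254 of 616 changed by at least 2-fold and 52 by at least 4-fold, with a median of 0.89 on the log2 scale. Among those lower, 316 of 613 changed by at least 2-fold and 51 by at least 4-fold, with a median of −1.02. The lower genes took the larger share of the counts, at 17.7%, 13.9% and 18.9% of the scaled counts in the 61Q/Q libraries and 11.7%, 5.86% and 6.62% in the 61R/R libraries, whereas the higher genes took 1.19%, 1.76% and 1.21% in 61Q/Q and 2.02%, 2.94% and 2.84% in 61R/R. Replicate 2 was the 61Q/Q library nearest to 61R/R in 84.1% of the higher and 87.1% of the lower genes, and replicate 1 was the 61R/R library nearest to 61Q/Q in 94.6% and 92.8%. The called genes were chosen by this contrast, so these shares describe them and test nothing.

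**Figure D2:**
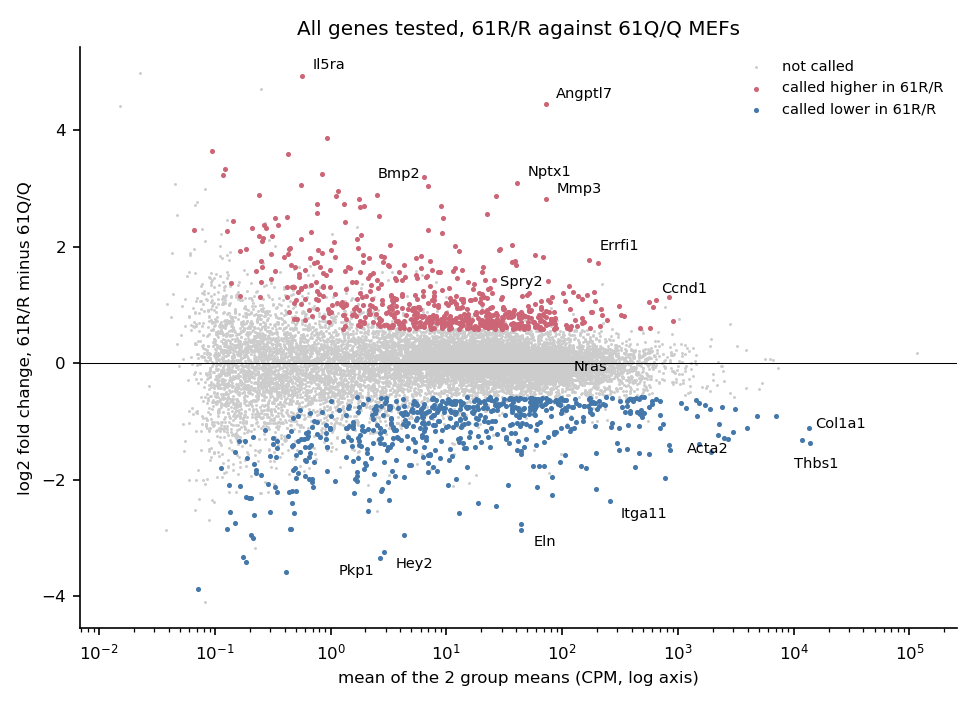
Each point is a gene, with its mean level (x axis, CPM, log axis) and its log2 fold change of 61R/R against 61Q/Q (y axis), for the 15759 genes tested. The 616 genes called higher (red) reach 4.94 for Il5ra, and the 613 called lower (blue) include Col1a1 and Thbs1 at the right of the plot.

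The largest rises included secreted proteins and proteases. Il5ra, which encodes the interleukin 5 receptor alpha chain, rose most among called genes without overlap whose higher group averaged 1 CPM or more, from 0.0282, 0.0730 and 0 CPM in 61Q/Q to 0.530, 1.82 and 0.933 in 61R/R (4.94, SE 0.82, adjusted p = 0.0194). It was barely detected in 61Q/Q, and its log2 fold change was 6.21 without 61Q/Q replicate 2. Angptl7, an angiopoietin-like secreted protein, was read at 1.59, 16.7 and 0.642 CPM in 61Q/Q and 40.7, 229 and 145 in 61R/R (4.44). The groups did not overlap, but 61Q/Q replicate 2 was more than 10-fold above the other 61Q/Q libraries, and the change was 6.97 without it. The collagenase Mmp1a (3.86, and 6.88 without 61Q/Q replicate 2) and the stromelysin Mmp3 (2.81, and 3.48 without it) are both on chromosome 9. Mmp3 was at 11.6, 31.7 and 11.2 CPM in 61Q/Q and 58.1, 155 and 169 in 61R/R. Nptx1, a neuronal pentraxin, was at 4.10, 16.2 and 5.10 CPM in 61Q/Q and 35.8, 105 and 77.4 in 61R/R, a change of 3.10 (3.98 without 61Q/Q replicate 2). Bmp2, a ligand of bone morphogenetic protein receptors, was at 1.18, 2.48 and 0.806 CPM in 61Q/Q and 6.14, 15.3 and 15.4 in 61R/R, a change of 3.04 (3.63 without 61Q/Q replicate 2). In both, the 61R/R values spread over more than 2-fold and 61R/R replicate 1 was the lowest of them. The other genes among the 12 largest rises were Msln (mesothelin, 3.20), the ferritin receptor Scara5 (2.95), the phosphatase Ptpn22 (2.88), the urea transporter Slc14a1 (2.87), the butyrophilin Btn1a1 (2.86) and the actin-bundling plastin Pls1 (2.81). Without 61Q/Q replicate 2, Ptpn22, Slc14a1 and Btn1a1 changed by 3.89, 3.95 and 3.71, and without 61R/R replicate 2, Msln and Scara5 changed by 2.54 and 2.12.

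The largest falls included Pkp1, Hey2, Ntrk3 and the matrix gene Eln. Pkp1, a desmosomal plakophilin, was at 6.73, 1.84 and 6.12 CPM in 61Q/Q and 1.05, 0.135 and 0.266 in 61R/R (−3.35, SE 0.67, adjusted p = 0.0194), and Hey2, a transcriptional repressor induced by Notch, at 6.55, 2.69 and 6.31 CPM in 61Q/Q and 1.40, 0.0898 and 0.178 in 61R/R (−3.23, SE 0.77, adjusted p = 0.0222). With 61R/R replicate 1 left out, the changes were −4.60 and −5.26. Ntrk3, the neurotrophin 3 receptor, was at 9.21, 2.56 and 11.3 CPM in 61Q/Q and 2.06, 0.505 and 0.444 in 61R/R (−2.95, and −4.01 without 61R/R replicate 1). In all 3 of these genes 61Q/Q replicate 2 was nearer in CPM to 61R/R replicate 1 than to its own group. Eln, which encodes elastin, showed the same arrangement, at 109, 19.2 and 106 CPM in 61Q/Q and 17.5, 9.62 and 5.15 in 61R/R (−2.86). Col10a1, a short-chain collagen, was at 118, 23.4 and 88.8 CPM in 61Q/Q and 17.99, 8.32 and 7.59 in 61R/R (−2.76). Itga11, an integrin subunit that binds collagen, fell from 591, 174 and 542 CPM to 146, 53 and 55.2 (−2.36, and −3.01 without 61R/R replicate 1). The others among the 12 largest falls were Tmtc1 (−2.57), Vstm2b (−2.54), the G protein regulator Rgs4 (−2.46), Parm1 (−2.40), the cation channel Trpc6 (−2.35) and the guanylate cyclase subunit Gucy1a3 (−2.35), and in each of these 61R/R replicate 1 was the highest of its group. Without it, Vstm2b, Rgs4, Parm1, Trpc6 and Gucy1a3 changed by −3.52, −3.33, −3.30, −3.84 and −3.24.

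By difference in CPM, which is not corrected for gene length, the 10 greatest gains included S100a4, a calcium-binding protein of motile cells, from 446, 505 and 409 to 566, 734 and 756 CPM (0.60), Emp1, an epithelial membrane protein (611, 809 and 631 CPM in 61Q/Q and 929, 1260 and 1179 in 61R/R, 0.72), and Hmga2, a chromatin protein of embryonic cells (433, 731 and 408 CPM in 61Q/Q and 864, 1360 and 1213 in 61R/R, 1.13). Gja1 (connexin 43, 0.97), Ptma (prothymosin alpha, 0.60), Slc5a3 (an inositol transporter, 1.09) and the Wnt antagonist Dkk2 (1.72) were also among them. Of the 10 greatest losses, 8 were genes of collagens or matrix glycoproteins, and Acta2, described below, was among the greatest losses too. Thbs1, which encodes thrombospondin 1, was read at 24868, 14392 and 21045 CPM in 61Q/Q and 12171, 5046 and 6123 in 61R/R (−1.37, SE 0.29, adjusted p = 0.0194). Its 61R/R values spread by more than 2-fold, with replicate 1 the highest.

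Genes of the RAS and RAF proteins themselves changed little in level. Of 12 tested, 1 rose and 3 fell, 33.3% against the 19% of all genes, and no change that passed reached 1.5-fold. Rras2, an R-RAS relative, was at 83.9, 95.9 and 83.3 CPM in 61Q/Q and 99.2, 107 and 106 in 61R/R (0.25, SE 0.07, adjusted p = 0.0428). The falling members were Braf (85.7, 71.2 and 78.1 CPM in 61Q/Q and 67.7, 53.9 and 54.8 in 61R/R, −0.41, SE 0.10, adjusted p = 0.021), Mras (48.02, 39.6 and 49.05 CPM in 61Q/Q and 39.2, 31.5 and 31.3 in 61R/R, −0.42, SE 0.11, adjusted p = 0.025) and Rras (−0.33, adjusted p = 0.0469). Braf encodes the RAF kinase most strongly activated by RAS, and M-RAS works with SHOC2 to activate RAF. Hras (−0.06), Rit1 (−0.34), Araf (−0.11), Ksr1 (−0.29) and Shoc2 (−0.04) did not pass. Of 21 regulators of RAS tested, 3 rose and 4 fell (33.3%, median −0.17), with 7 lower without 61R/R replicate 1. The GTPase-activating protein Rasa2 (0.28), the adaptor Shc1 (0.23) and the NF1 partner Spred1 rose. The GTPase-activating proteins Dab2ip (−0.35) and Rasal3 (−1.18) and the exchange factors Rasgrp1 (−1.33) and Sos1 (−0.22) fell. Of 11 genes of MEK, ERK and their kinase targets, the RSK family members Rps6ka6 (2.08, 4.93 and 1.81 CPM in 61Q/Q and 5.52, 10.1 and 8.83 in 61R/R, 1.46, and 2.06 without 61Q/Q replicate 2) and Rps6ka1 (0.41) rose and Mknk1 (−0.29), an ERK-activated kinase of eIF4E, fell.

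Inhibitors of MAPK signalling, many but not all of them induced by ERK, moved in both directions. Of 19 tested, 9 rose and 3 fell, 63.2% against 19% of all genes, and the median was 0.38. Spry2, a Sprouty inhibitor of receptor signalling to RAS, was at 45.1, 63.04 and 45.98 CPM in 61Q/Q and 80.9, 123 and 114 in 61R/R (1.04, SE 0.16, adjusted p = 0.0194), and Spry4 at 32.2, 49.8 and 34.3 CPM in 61Q/Q and 59.6, 92.4 and 84.4 in 61R/R (1.02, SE 0.19, adjusted p = 0.0194). Dusp6, a cytoplasmic phosphatase specific for ERK, was at 43.4, 58.3 and 44.9 CPM in 61Q/Q and 75.6, 121 and 113 in 61R/R (1.08, SE 0.19, adjusted p = 0.0194). Each 61R/R library lay above each 61Q/Q library in these genes, with 61R/R replicate 1 the lowest of its group and 61Q/Q replicate 2 the highest of its own. Errfi1, an inhibitor of the EGF receptor family, had the greatest change of the list, at 57.02, 125 and 49.7 CPM in 61Q/Q and 165, 324 and 303 in 61R/R (1.77, SE 0.33, adjusted p = 0.0194). Spred1 (119, 126 and 109.8 CPM in 61Q/Q and 143, 175 and 177 in 61R/R, 0.48), Spred2 (0.38), Dusp5 (0.71), Dusp7 (0.31) and Dusp10 (0.56) also rose.

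The members that fell were Spry1, a Sprouty like Spry2, at 46.9, 43.9 and 63.9 CPM in 61Q/Q and 37.5, 23.6 and 22.5 in 61R/R (−0.89, SE 0.27, adjusted p = 0.0426), Dusp8, a phosphatase of JNK and p38, at 20.8, 13.8 and 20.96 CPM in 61Q/Q and 12.7, 7.13 and 6.88 in 61R/R (−1.06, SE 0.22, adjusted p = 0.0194), and Dusp1, a nuclear phosphatase of the stress kinases and ERK, at 119, 83.9 and 111 CPM in 61Q/Q and 82.1, 64.7 and 68.6 in 61R/R (−0.54, SE 0.13, adjusted p = 0.0218). Spry1 and Spry2 thus moved in opposite directions with no overlap between genotypes in either. The remaining members did not pass, namely Spred3 (0.42, adjusted p = 0.053), Dusp9 (0.64, adjusted p = 0.0577), Dusp4 (−0.42, adjusted p = 0.0879), Dusp2 (−0.89), Dusp14 (0.09), Dusp16 (−0.11) and Il17rd (−0.23). Spry3 was too low to be tested. Without 61R/R replicate 1 and 61Q/Q replicate 2, 11 rose and 4 fell.

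**Figure D3:**
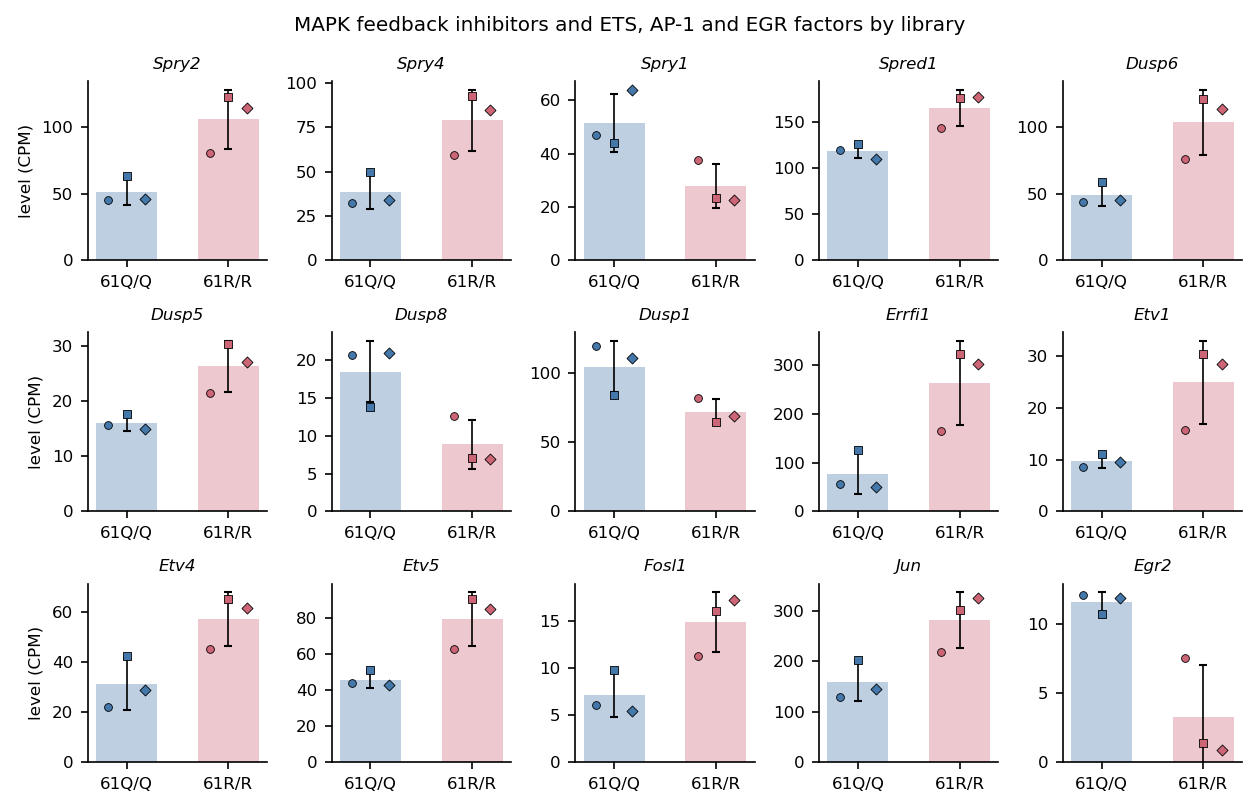
Level (y axis, CPM) in 61Q/Q (blue) and 61R/R (red) of 9 feedback inhibitors and 6 transcription factors. Points are the libraries (circle, square and diamond for replicates 1, 2 and 3), bars are means and error bars SD of 3 (cropped at 0 for Egr2). In all 15 genes, which were picked for display, the 3 libraries of one genotype lie to one side of the other. In most of them the square of 61Q/Q and the circle of 61R/R are the nearest pair. Over all 28 factors tested, 61R/R lay above without overlap in 11 and below in 7, and over all 19 inhibitors in 12 and 5. The shares over all genes tested were 17.9% above and 19.2% below.

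Transcription factors that respond to ERK also moved in both directions, with 8 rising and 3 falling of 28 (39.3%, median −0.02). The ETS factors of the ETV4 group rose together. Etv1 was at 8.55, 11.2 and 9.48 CPM in 61Q/Q and 15.8, 30.6 and 28.6 in 61R/R (1.36, SE 0.20, adjusted p = 0.0194), Etv5 at 43.9, 51.1 and 43.02 CPM in 61Q/Q and 62.8, 90.99 and 85.3 in 61R/R (0.79, SE 0.13, adjusted p = 0.0194) and Etv4 at 22.3, 42.6 and 28.8 CPM in 61Q/Q and 45.1, 65.2 and 61.8 in 61R/R (0.88, SE 0.25, adjusted p = 0.0358). Of AP-1 subunits, Fosl1 (6.12, 9.74 and 5.44 CPM in 61Q/Q and 11.2, 16.1 and 17.2 in 61R/R, 1.06), Fosb (1.24) and Jun (130.2, 202 and 145 CPM in 61Q/Q and 218, 301 and 324 in 61R/R, 0.82) rose, Junb fell (−0.38), and Fos was at 4.51, 3.85 and 5.34 CPM in 61Q/Q and 4.78, 5.13 and 3.61 in 61R/R with no call (−0.02, adjusted p = 0.969). Phlda1 (0.40) and Klf4 (0.34) rose, and Ier5 (−0.33) and Elk1 (−0.18) fell. The immediate early factor Egr2 was at 12.1, 10.7 and 11.9 CPM in 61Q/Q and 7.57, 1.40 and 0.933 in 61R/R, a difference of −1.81 that missed the threshold (adjusted p = 0.0502, and a difference of −3.31 without 61R/R replicate 1). Its 61R/R values were spread widely, and replicate 1 lay nearest to 61Q/Q. Egr1 (−0.23, adjusted p = 0.323) and Myc (55.9, 74.05 and 63.95 CPM in 61Q/Q and 75.04, 78.99 and 78.96 in 61R/R, 0.26, adjusted p = 0.145) did not pass.

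Growth factor genes changed often and in both directions. Of 37 ligands, 9 rose and 9 fell (48.6%, median −0.29), and 14 fell without 61R/R replicate 1. Kitl, the ligand of the KIT receptor that melanocytes need, was at 16.3, 26.1 and 14.1 CPM in 61Q/Q and 38.1, 78.3 and 64.9 in 61R/R (1.68, SE 0.27, adjusted p = 0.0194), and Fgf10, a mesenchymal signal to epithelium, at 21.1, 19.2 and 13.1 CPM in 61Q/Q and 35.8, 73.2 and 70.7 in 61R/R (1.75, SE 0.29, adjusted p = 0.0194). Areg, an EGF receptor ligand, rose from a low level (0.549, 1.28 and 0.629 CPM in 61Q/Q and 1.52, 4.71 and 2.71 in 61R/R, 1.86). Fgf1 (0.93), Fgf5 (1.00), Fgf7 (0.39), Vegfb (0.46), Btc (0.88) and Angpt1 (0.61) rose as well. Those that fell included Angpt4 (3.83, 3.03 and 4.46 CPM in 61Q/Q and 1.73, 0.618 and 0.677 in 61R/R, −1.90, SE 0.34, adjusted p = 0.0194), Pdgfc (172, 154 and 175 CPM in 61Q/Q and 134, 95.4 and 104 in 61R/R, −0.58, SE 0.12, adjusted p = 0.0194), Pdgfd (−0.74), Nrg1 (−0.82), Vegfa (−0.50) and Igf1 (40.4, 19.95 and 36.6 CPM in 61Q/Q and 18, 9.27 and 13.02 in 61R/R, −1.27), with Ntf3 (−1.46), Fgf9 (−1.53) and Fgf13 (−1.07). Without 61R/R replicate 1, Angpt4, Ntf3 and Fgf9 changed by −2.54, −2.12 and −2.45.

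Of 26 growth factor receptors, 3 rose and 5 fell (30.8%, median −0.20), against 5 and 9 without 61R/R replicate 1. Both PDGF receptors changed, in opposite directions. Pdgfra was at 64, 128 and 93.03 CPM in 61Q/Q and 137, 254 and 223 in 61R/R (1.10, SE 0.26, adjusted p = 0.0218) and Pdgfrb at 445, 352 and 483 CPM in 61Q/Q and 289, 143 and 160.4 in 61R/R (−1.11, SE 0.23, adjusted p = 0.0195). Thus the 61Q/Q cells held more Pdgfrb than the 61R/R cells and less Pdgfra, in each library. Mertk, a receptor for apoptotic cells, was at 8.64, 12.2 and 9.32 CPM in 61Q/Q and 16.02, 29.01 and 27.7 in 61R/R (1.27, SE 0.25, adjusted p = 0.0194), and the collagen receptor Ddr1 at 139, 98.5 and 121 CPM in 61Q/Q and 88.4, 66.9 and 62.8 in 61R/R (−0.71, SE 0.13, adjusted p = 0.0194). Flt4 rose (0.98), and Ntrk3, Igf1r (−0.25) and Fgfr2 (−0.83) fell. Egfr (−0.23, adjusted p = 0.167) and Met (0.73, adjusted p = 0.0851) did not pass.

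Genes of cell division were higher in 61R/R, but 61Q/Q replicate 2 was as high as 61R/R replicate 1. Of 56 genes of mitosis, 43 rose and 0 fell (76.8%, median 0.59), and all 56 log2 fold changes were positive. The 3 libraries of each genotype did not overlap in 31 of them (61R/R above), beside 17.9% of all genes. The mean log2 CPM of the list was 4.56, 5.28 and 4.55 in 61Q/Q and 5.29, 5.50 and 5.49 in 61R/R. Cdc25b, a phosphatase that activates CDK1, was at 11.7, 18.7 and 11.8 CPM in 61Q/Q and 21.5, 29.1 and 26.6 in 61R/R (0.87, SE 0.17, adjusted p = 0.0194), and its relative Cdc25c at 5.01, 8.11 and 4.57 CPM in 61Q/Q and 9.62, 10.4 and 10.7 in 61R/R (0.80). The spindle kinesin Kif18a (0.80) and the checkpoint protein Mad2l1 (0.58) had the next smallest p. Mki67, used to mark cycling cells, was at 184, 352 and 184 CPM in 61Q/Q and 338, 342 and 356 in 61R/R, and 61Q/Q replicate 2 lay within the 61R/R range (0.52, adjusted p = 0.0851). In the fit without both 61R/R replicate 1 and 61Q/Q replicate 2, 55 of 56 rose and the median was 0.95. All but 1 of the genes named from this list were read higher in 61R/R replicate 1 than in 61Q/Q replicate 2, whereas over the list 32 of 56 were.

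DNA replication genes showed a similar order of libraries. Of 50, 32 rose and 0 fell (64.0%, median 0.51), with 48 rising without 61Q/Q replicate 2. In 22 of them 61R/R lay above without overlap, beside 17.9% of all genes. The mean log2 CPM was 3.80, 4.40 and 3.82 in 61Q/Q and 4.41, 4.60 and 4.56 in 61R/R. Tipin, of the replication fork, was at 18.3, 24.1 and 18.2 CPM in 61Q/Q and 27.7, 29.4 and 28.02 in 61R/R (0.49, SE 0.10, adjusted p = 0.0194) and Pole2, a subunit of polymerase epsilon, at 3.36, 5.17 and 3.37 CPM in 61Q/Q and 6.23, 7.13 and 6.48 in 61R/R (0.73). Pola2 (0.61) and Rfc5 (0.54), which prime synthesis and load the clamp, also rose. Among the MCM helicase genes, Mcm5 was at 27.6, 45.6 and 26.95 CPM in 61Q/Q and 45.3, 55.5 and 53.7 in 61R/R (0.62), with the genotypes overlapping by 1 library. Histone genes had the greatest median of the 3 lists, 0.82, with 45 of 52 rising and 0 falling (86.5%). The mean log2 CPM of this list was 4.18, 5.11 and 4.32 in 61Q/Q and 5.07, 5.49 and 5.53 in 61R/R, so 61Q/Q replicate 2 was slightly above 61R/R replicate 1. Hist1h4f (28.3, 47.5 and 34.1 CPM in 61Q/Q and 51.7, 84.4 and 68.6 in 61R/R, 0.90), Hist1h3d (0.84), Hist4h4 (1.10) and Hist1h3i (0.80) had the smallest p. Copies of the histone genes are near identical, so the split of reads among them is uncertain.

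Regulators of the cycle were less uniform. Of 21 E2F and G1/S regulators, 3 rose and 0 fell (14.3%, median 0.13). Cyclin D1 (Ccnd1), the D-type cyclin induced by ERK, was at 326, 409 and 363 CPM in 61Q/Q and 559, 871 and 849 in 61R/R (1.05, SE 0.20, adjusted p = 0.0194), and the repressor E2f8 at 12.4, 26.4 and 12.8 CPM in 61Q/Q and 35.2, 70.6 and 65.6 in 61R/R (1.73, SE 0.32, adjusted p = 0.0194). E2f7 rose by less (0.56). In both Ccnd1 and E2f8 each 61R/R library stood above each 61Q/Q library. Without 61Q/Q replicate 2, 11 of the 21 rose and 1 fell. Of 31 CDK inhibitors and p53 targets, 2 rose and 4 fell (19.4%, median 0.02), against 6 and 6 without 61R/R replicate 1 and 3 and 8 without 61Q/Q replicate 2. Mdm2 (241, 270.2 and 243 CPM in 61Q/Q and 307, 364 and 399 in 61R/R, 0.50) rose, and so did Bax (0.26). The stress genes Gadd45g (59.2, 37.5 and 54.8 CPM in 61Q/Q and 31.6, 12.8 and 14.4 in 61R/R, −1.37), Gadd45b (−1.01) and Gadd45a (−0.64) and the death receptor Fas (−0.77) fell. Cdkn1a (p21) was at 463, 379 and 496 CPM in 61Q/Q and 390.1, 424 and 424 in 61R/R (−0.11, adjusted p = 0.407) and Cdkn2a, which encodes INK4A and ARF, at 56.2, 31.8 and 61.02 CPM in 61Q/Q and 40.2, 59.1 and 57.6 in 61R/R (0.07, adjusted p = 0.856), with the genotypes overlapping in both.

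**Figure D4:**
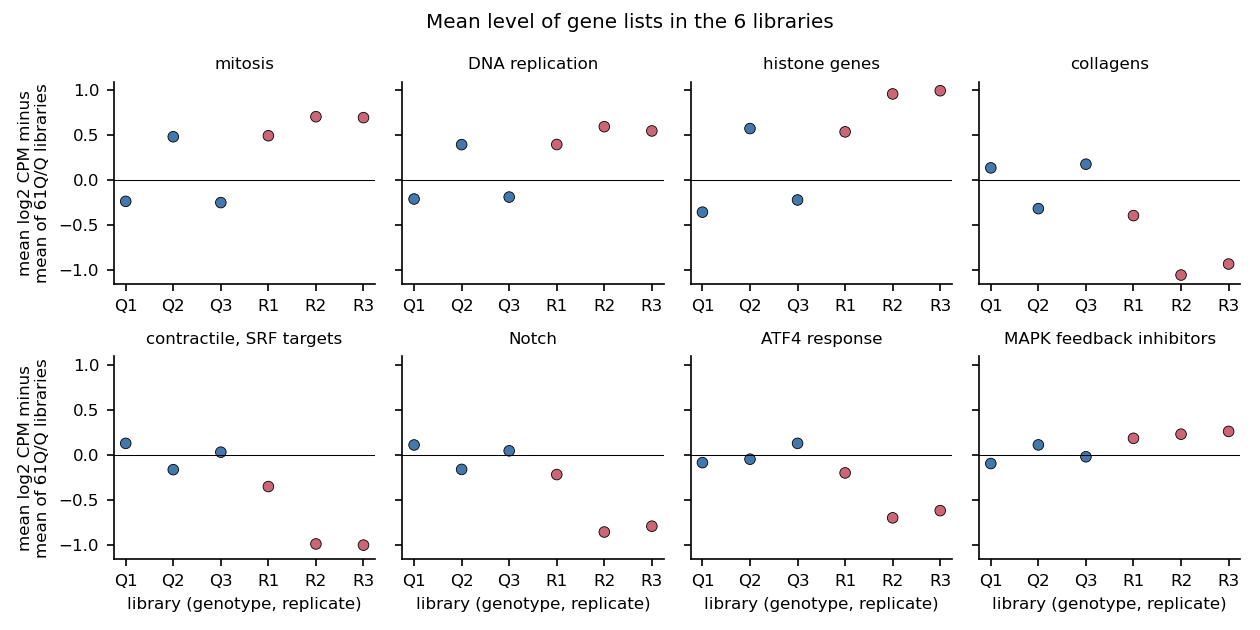
Mean log2 CPM of the tested members of 8 gene lists in each library (Q1 to Q3 are 61Q/Q, blue, and R1 to R3 are 61R/R, red), with the mean of the 61Q/Q libraries subtracted (y axis). For mitosis, DNA replication and histone genes Q2 and R1 sit at nearly the same height, while for contractile and ATF4 response genes all 3 61R/R libraries lie below the 61Q/Q libraries.

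Promoters of the mitotic genes were searched for motifs of cell cycle promoters. Of 56 members, 46 had a promoter in the RefSeq table (GRCm38.p6, 300 bases around the start, most of them upstream). CCAAT, the site of the factor NF-Y, was in 69.6% of them against 41.1% of the promoters of all 27025 genes of the table, and TTTGAA, the CHR element of late cell cycle genes, in 67.4% against 20.2% (both strands searched, and the motifs can share an end base). A match is a description of the letters and not a test of binding. The shares cover members of the list whether or not they rose. Of the DNA replication members, 78.0% had a promoter, under the 80% set as the minimum, so no share is given for them. Some promoters, such as that of Cdc25c, which has a smaller p than Ttk, were left out of the choice for display whatever their motifs. Of the members considered, those with both motifs and the smallest p were Ttk and Cenpa. Ttk, a spindle checkpoint kinase, was at 7.32, 13.5 and 8.91 CPM in 61Q/Q and 15.03, 17.8 and 18.3 in 61R/R (0.78). Cenpa, the centromeric histone, was at 15.95, 25.6 and 16.3 CPM in 61Q/Q and 26.7, 32.8 and 31.5 in 61R/R (0.65). The promoters of Ttk and Cenpa are shown because they hold both elements, with CCAAT and TTTGAA or their reverse complements in capitals. They span chr9:83834439-83834738 and chr5:30666636-30666935 on the plus strand.
Ttk: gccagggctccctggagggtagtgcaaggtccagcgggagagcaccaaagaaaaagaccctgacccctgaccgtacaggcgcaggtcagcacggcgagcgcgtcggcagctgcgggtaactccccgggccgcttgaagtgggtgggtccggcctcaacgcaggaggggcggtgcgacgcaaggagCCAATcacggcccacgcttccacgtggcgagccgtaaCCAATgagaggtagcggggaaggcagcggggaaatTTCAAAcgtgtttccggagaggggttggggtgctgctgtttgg
Cenpa: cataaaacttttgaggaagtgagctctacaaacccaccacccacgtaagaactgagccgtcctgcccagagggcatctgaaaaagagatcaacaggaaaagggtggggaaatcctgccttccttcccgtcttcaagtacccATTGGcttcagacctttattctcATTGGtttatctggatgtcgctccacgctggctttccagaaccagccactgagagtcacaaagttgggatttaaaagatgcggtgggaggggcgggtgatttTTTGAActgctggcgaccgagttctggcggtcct

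Genes of the extracellular matrix fell across most classes. Of 38 collagen genes tested, 21 fell and 0 rose (55.3%, median −0.75). Col1a1, the alpha 1 chain of type I collagen, was at 16162, 14023 and 20735 CPM in 61Q/Q and 11142, 4379 and 4777 in 61R/R (−1.33, SE 0.31, adjusted p = 0.0218), and Col1a2, its partner, at 8641, 8053 and 11063 CPM in 61Q/Q and 6755, 3821 and 4257 in 61R/R (−0.90). Both were lower in each 61R/R library than in each 61Q/Q library. Col5a2, of type V collagen, was at 3851, 2766 and 3977 CPM in 61Q/Q and 2257, 922 and 1182 in 61R/R (−1.28), and Col8a1 at 1120, 727 and 1170 CPM in 61Q/Q and 641, 387 and 436 in 61R/R (−1.04). Col5a1 (−1.29) and Col12a1 (−1.11) were among the greatest losses in level. All collagen members together made up 50926, 44306 and 61879 CPM in the 61Q/Q libraries and 36526, 17802 and 20049 CPM in the 61R/R libraries. Enzymes that modify and cross-link collagen followed, with 16 of 24 lower and 0 higher (66.7%, median −0.53). Plod3, a lysyl hydroxylase, was at 216, 185 and 218 CPM in 61Q/Q and 166, 115 and 124 in 61R/R (−0.61), and the collagen chaperone Fkbp10 (−0.47), the prolyl hydroxylase P3h1 (−0.72) and the lysyl oxidase Loxl1 (−0.61) fell with it.

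Of 70 matrix glycoproteins and proteoglycans, 24 fell and 4 rose (40.0%, median −0.58). Fn1, which encodes fibronectin, was at 18356, 15204 and 21683 CPM in 61Q/Q and 12724, 6101 and 6666 in 61R/R (−1.12, SE 0.24, adjusted p = 0.0198), Tnc (tenascin C) at 5691, 5976 and 7288 CPM in 61Q/Q and 4924, 2163 and 2985 in 61R/R (−0.91) and Ltbp2, a latent TGF-β binding protein, at 1116, 760.1 and 1023 CPM in 61Q/Q and 644, 351 and 347 in 61R/R (−1.11). Of the fibroblast markers, Pdgfrb, Col1a1, Col1a2 and Col3a1 fell and Pdgfra rose. With 61R/R replicate 1 left out, 38 of the 70 fell. The 4 members that rose were Npnt (39.9, 50.3 and 36.9 CPM in 61Q/Q and 64.3, 115 and 86.1 in 61R/R, 1.06), Mgp (95.1, 90.8 and 70.8 CPM in 61Q/Q and 134, 239 and 197 in 61R/R, 1.15), Matn2 (1.13) and Prg4 (0.92). Npnt encodes nephronectin, an integrin ligand, and Mgp a calcification inhibitor. Of 40 matrix proteases and inhibitors, 4 rose and 9 fell (32.5%, median −0.32), with 14 lower without 61Q/Q replicate 2. Beside Mmp3 and Mmp1a, those that rose were Plau (urokinase), at 124, 144 and 105 CPM in 61Q/Q and 196, 283 and 305 in 61R/R (1.07, SE 0.20, adjusted p = 0.0194), and the plasminogen activator inhibitor Serpinb2 (1.27, 1.69 and 0.629 CPM in 61Q/Q and 3.31, 5.96 and 3.52 in 61R/R, 1.83). Mmp14, a membrane-bound collagenase, was at 574, 507 and 599 CPM in 61Q/Q and 447, 335 and 339.6 in 61R/R (−0.58) and Adamts12 at 179.6, 113 and 184 CPM in 61Q/Q and 91.7, 31.6 and 37.02 in 61R/R (−1.57, and −2.21 without 61R/R replicate 1).

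Genes of the contractile apparatus, many of them targets of serum response factor (SRF), fell as a group. Of 30, 23 fell and 0 rose (76.7%, median −0.57), and 61R/R lay below 61Q/Q without overlap in 25, beside 19.2% of all genes. The mean log2 CPM was 7.72, 7.43 and 7.62 in 61Q/Q and 7.24, 6.60 and 6.59 in 61R/R. Tgfb1i1 (HIC-5, a focal adhesion adaptor) was at 155, 139 and 149 CPM in 61Q/Q and 124, 96.8 and 93.4 in 61R/R (−0.50, SE 0.10, adjusted p = 0.0194), Csrp1 at 542, 418 and 514 CPM in 61Q/Q and 372, 234 and 228 in 61R/R (−0.82) and Tagln (SM22) at 2143, 1534 and 2060 CPM in 61Q/Q and 1362, 821 and 883 in 61R/R (−0.90). Acta2, smooth muscle actin, was at 4784, 3143 and 4506 CPM in 61Q/Q and 2701, 1305 and 1458 in 61R/R (−1.19, SE 0.25, adjusted p = 0.0194). In each of these genes 61R/R replicate 1 was below 61Q/Q replicate 2, by less than the other 61R/R libraries were. Of 20 YAP targets and partners, 2 rose and 6 fell (40.0%, median −0.24), and 10 fell when either 61R/R replicate 1 or 61Q/Q replicate 2 was left out. Amotl2 (509, 364 and 477 CPM in 61Q/Q and 328, 209 and 217 in 61R/R, −0.84), F3 (−1.09), Tead3 (−0.42) and the matricellular gene Ctgf (2640, 1684 and 2263 CPM in 61Q/Q and 1385, 509 and 633 in 61R/R, −1.38) fell, while Tead4 (6.97, 8.64 and 5.88 CPM in 61Q/Q and 11.5, 17.8 and 15.4 in 61R/R, 1.06) rose. Ankrd1, another target, was at 51.6, 49.3 and 52.3 CPM in 61Q/Q and 51.1, 42.2 and 54.6 in 61R/R with overlapping genotypes (−0.05, adjusted p = 0.894).

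The CArG box, the site of SRF, was found in the promoters of 8 of 25 contractile members with a promoter (32.0%), against 1.81% of all genes of the table. The list was written to hold known SRF targets, and the share covers members whether or not they fell. It therefore describes the list and tests nothing about the genotypes. Both strands were searched. The 2 members with a box and the smallest p are shown, with the box in capitals. Cnn2, a calponin, was at 627, 546 and 604 CPM in 61Q/Q and 512, 435 and 411 in 61R/R (−0.39), and Myl9, a myosin light chain, at 587, 392 and 529 CPM in 61Q/Q and 342, 184 and 200.3 in 61R/R (−1.05). The promoters span chr10:79988350-79988649 and chr2:156775214-156775513 on the plus strand.
Cnn2: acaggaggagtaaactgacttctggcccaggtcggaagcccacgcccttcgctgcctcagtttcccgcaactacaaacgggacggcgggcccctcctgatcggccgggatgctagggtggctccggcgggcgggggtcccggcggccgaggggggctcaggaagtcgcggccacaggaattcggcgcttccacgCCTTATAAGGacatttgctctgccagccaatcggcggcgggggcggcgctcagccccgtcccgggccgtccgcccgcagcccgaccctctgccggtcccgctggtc
Myl9: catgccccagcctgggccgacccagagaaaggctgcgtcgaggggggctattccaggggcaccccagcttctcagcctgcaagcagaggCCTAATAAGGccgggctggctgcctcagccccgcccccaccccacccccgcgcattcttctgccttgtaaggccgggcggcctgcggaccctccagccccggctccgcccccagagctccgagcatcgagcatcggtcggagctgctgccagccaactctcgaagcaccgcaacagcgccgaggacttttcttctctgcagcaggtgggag

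Ligands and targets of TGF-β, Notch and Wnt also changed. Of 44 genes of TGF-β and BMP signalling, 3 rose and 14 fell (38.6%, median −0.21), with 5 higher without 61R/R replicate 1. All 3 TGF-β ligands fell, with Tgfb2 at 130.3, 50.3 and 115 CPM in 61Q/Q and 41.1, 11.8 and 14.6 in 61R/R (−2.13), Tgfb3 at 573, 420.0 and 598 CPM in 61Q/Q and 335, 113 and 124 in 61R/R (−1.47) and Tgfb1 at 55.4, 55.4 and 60.4 CPM in 61Q/Q and 50.7, 37.5 and 41.9 in 61R/R (−0.40). The BMP antagonist Nog (−0.85) and the activin subunit Inhba (432, 285 and 369.5 CPM in 61Q/Q and 255, 133 and 144 in 61R/R, −1.03) fell too. Without 61R/R replicate 1, Tgfb2 and Tgfb3 changed by −2.90 and −2.16. Beside Bmp2, the receptors Tgfbr3 (28.7, 64.9 and 31.6 CPM in 61Q/Q and 79.3, 129 and 123 in 61R/R, 1.41) and Tgfbr2 (0.22) rose. Of 21 Notch genes, 1 rose and 7 fell (38.1%, median −0.23), against 3 and 10 without 61R/R replicate 1. Jag1, a Notch ligand, was at 245, 159 and 278 CPM in 61Q/Q and 123, 35.6 and 41.1 in 61R/R (−1.77, SE 0.43, adjusted p = 0.0231), the glycosyltransferase Lfng at 9.38, 7.16 and 7.88 CPM in 61Q/Q and 5.65, 3.80 and 3.40 in 61R/R (−0.93) and the target Hes1 at 39.4, 32.9 and 38.4 CPM in 61Q/Q and 30.7, 17.4 and 20.2 in 61R/R (−0.70). Hey1 (−2.19) and the coactivator Maml2 (−0.78) fell as well (Jag1 and Hey1 by −2.56 and −3.73 without 61R/R replicate 1), whereas Rbpj, the DNA-binding factor of the pathway, rose (161, 278 and 189 CPM in 61Q/Q and 327, 458 and 455 in 61R/R, 0.98). Of 43 Wnt genes, 3 rose and 11 fell (32.6%, median −0.42). Wnt4 (7.05, 3.25 and 6.87 CPM in 61Q/Q and 2.30, 1.10 and 1.10 in 61R/R, −1.93), Wnt16 (−1.49) and Wnt5a (224, 185 and 235 CPM in 61Q/Q and 169, 132 and 139 in 61R/R, −0.55) fell. The 3 that rose were Frzb (4.93, 7.96 and 3.34 CPM in 61Q/Q and 10.9, 25.2 and 25.5 in 61R/R, 1.92), Dkk2 (1.72) and Apcdd1 (0.77). They are known as Wnt antagonists, but the inhibitors Kremen1 and Nkd2 and the Dkk2 relative Dkk3 were among the 11 that fell.

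Genes of the ATF4 response, which supplies amino acids and transfer RNA charging under stress, were lower in 61R/R. Of 43, 29 fell and 1 rose (69.8%, median −0.43), with 61R/R below without overlap in 32, beside 19.2% of all genes. The mean log2 CPM was 5.98, 6.02 and 6.19 in 61Q/Q and 5.86, 5.37 and 5.45 in 61R/R, so here 61Q/Q replicate 2 lay with its own genotype. By contrast, 61R/R replicate 1 lay below the 61Q/Q libraries but nearer to them than to the other 61R/R libraries. Atf5, a factor related to ATF4, was at 169, 124 and 198 CPM in 61Q/Q and 101, 61.9 and 61.4 in 61R/R (−1.13, SE 0.21, adjusted p = 0.0194), and Atf4 itself at 161, 164 and 174 CPM in 61Q/Q and 151, 129 and 131 in 61R/R (−0.28). Pck2, a mitochondrial carboxykinase, was at 123, 107 and 151 CPM in 61Q/Q and 90.6, 60.5 and 60.04 in 61R/R (−0.85), the transfer RNA exporter Xpot at 224, 204 and 237 CPM in 61Q/Q and 188, 148 and 159 in 61R/R (−0.43) and the seryl-tRNA synthetase Sars at 217, 212 and 253 CPM in 61Q/Q and 190.1, 158 and 161 in 61R/R (−0.42). The asparagine synthetase Asns (−0.55) and the stress genes Ddit3 (−0.88), Chac1 (−0.88) and Trib3 (−1.28) fell. Phgdh, the first enzyme of serine synthesis, rose (209, 238 and 230.3 CPM in 61Q/Q and 250.2, 292 and 289 in 61R/R, 0.29, adjusted p = 0.0491), and Psat1, the next enzyme, was at 198, 244 and 230.5 CPM in 61Q/Q and 227, 216 and 216 in 61R/R with overlapping genotypes (−0.03).

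**Figure D5:**
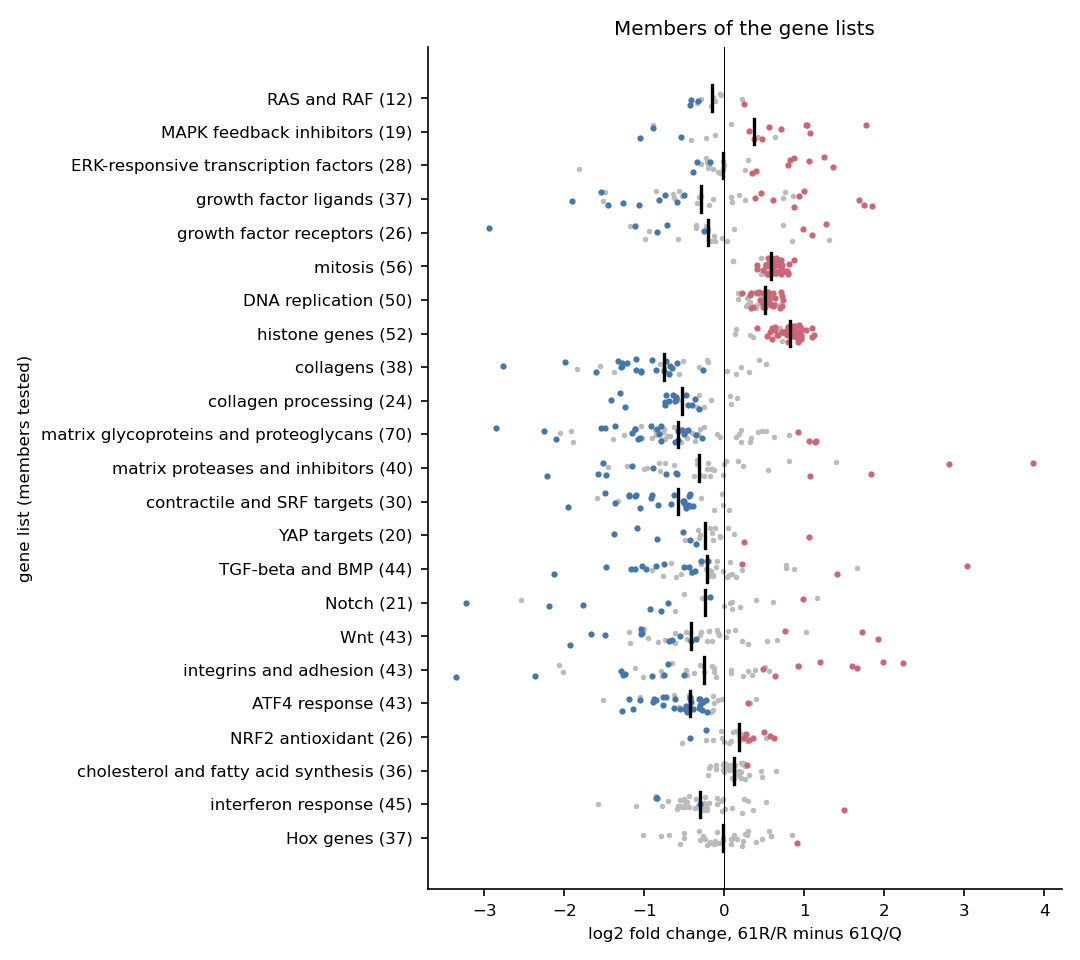
Log2 fold change of 61R/R against 61Q/Q (x axis) of each tested member of 23 gene lists (y axis, number tested in brackets). Red and blue points passed at an adjusted p under 0.05 as higher and lower, grey points did not, and black bars are medians. Mitosis, DNA replication and histone members all lie above 0, whereas contractile, collagen and ATF4 response members lie mostly below 0.

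Other metabolic lists held fewer members that passed. Of 26 NRF2 targets and antioxidant genes, 7 rose and 2 fell (34.6%, median 0.19). The sulfiredoxin Srxn1 was at 49.9, 52.7 and 48.2 CPM in 61Q/Q and 62.2, 86.5 and 83.8 in 61R/R (0.62), and G6pdx (0.49), Pgd (0.36) and Nqo1 (0.58) rose with it, which are enzymes of the pentose phosphate pathway and of quinone reduction. Of 36 glycolysis and hypoxia genes, 6 rose and 2 fell (22.2%, median 0.26), with Adm at 24.4, 42.3 and 25.6 CPM in 61Q/Q and 44.2, 56.7 and 61.01 in 61R/R (0.81) and Pfkp at 43.3, 38.5 and 42.4 CPM in 61Q/Q and 33.7, 32.4 and 31.5 in 61R/R (−0.35). Of 48 ribosome biogenesis genes, 7 rose and 0 fell (14.6%, median 0.19), among them fibrillarin (Fbl, 45.3, 61.5 and 48.5 CPM in 61Q/Q and 61.6, 74.4 and 77.5 in 61R/R, 0.46) and nucleophosmin (Npm1, 0.30). Of 36 cholesterol and fatty acid synthesis genes, 1 passed (Srebf1, 0.29), and so did 1 of 45 respiratory chain genes (Ndufb8, 0.18). The mean log2 CPM of the cholesterol list was 5.73, 6.35 and 5.79 in 61Q/Q and 6.22, 6.02 and 6.11 in 61R/R, with 61Q/Q replicate 2 the highest of the 6 libraries. The counts of these lists moved with single libraries, as did the count over all genes given above. Without 61Q/Q replicate 2, 27 ribosome biogenesis and 17 cholesterol and fatty acid synthesis genes rose, and without 61R/R replicate 1, 14 NRF2 targets and 16 respiratory chain genes rose. Of the glycolysis and hypoxia genes, 10 rose and 4 fell without 61Q/Q replicate 2 and 10 rose and 3 fell without 61R/R replicate 1.

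Adhesion and guidance genes changed in both directions. Of 43 integrins, cadherins and desmosome genes, 8 rose and 9 fell (39.5%, median −0.25). Itga2, a collagen-binding integrin subunit, was at 2.46, 4.86 and 2.24 CPM in 61Q/Q and 7.92, 20.98 and 16.3 in 61R/R (2.24, SE 0.41, adjusted p = 0.0194), Itgb7 at 0.521, 0.804 and 0.692 CPM in 61Q/Q and 1.57, 2.66 and 2.16 in 61R/R (1.66) and the laminin-binding Itga6 at 58.5, 75.2 and 52.3 CPM in 61Q/Q and 107, 172 and 149.6 in 61R/R (1.20). The adhesion molecule Alcam rose (0.49) and Itgb5 fell (−0.75). Thus of the integrin subunits that bind collagen, Itga2 rose while Itga11 and Itga1 (−1.29) fell. The count was 9 of the 43 higher and 17 lower without 61R/R replicate 1. Of 48 axon guidance genes, 6 rose and 13 fell (39.6%, median −0.15), with Epha4 at 86.99, 43.01 and 74.5 CPM in 61Q/Q and 38.4, 16.6 and 20.7 in 61R/R (−1.43) and Sema6d at 10.1, 15.9 and 9.25 CPM in 61Q/Q and 21.01, 36.8 and 37.4 in 61R/R (1.43). Of 15 BCL2 family genes, 3 rose and 3 fell (40.0%, median −0.12). Of these, Bcl2l11, which encodes the death-promoting BIM, was at 19.4, 19.3 and 19.1 CPM in 61Q/Q and 23.4, 30.6 and 28.5 in 61R/R (0.51), Bcl2l2 changed by −0.55, Bmf by −1.06 and Bcl2l1 by 0.41.

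The remaining lists passed at or below the share of all genes, apart from retinoic acid genes. Of 38 cytokines, chemokines and prostaglandin enzymes, 4 passed (10.5%), with the prostaglandin synthases Ptges (25.05, 32.7 and 25.6 CPM in 61Q/Q and 42.8, 66.8 and 75.8 in 61R/R, 1.15, SE 0.19, adjusted p = 0.0194) and Ptgs1 (1.06) higher and Cxcl14 (75.7, 44.1 and 57.4 CPM in 61Q/Q and 35.9, 23.02 and 24.99 in 61R/R, −1.08) and Ccl17 lower (−2.56, and −3.30 without 61R/R replicate 1 or −1.94 without 61Q/Q replicate 1). Of 45 interferon response genes, 4 passed (8.89%), with Nlrc5, an activator of MHC class I genes, higher (2.44, 4.83 and 3.36 CPM in 61Q/Q and 7.44, 10.5 and 12.2 in 61R/R, 1.5) and B2m (−0.31), H2-T23 (−0.84) and Gbp2 (−0.85) lower. The number that fell was 13 of the 45 without 61R/R replicate 1. Of 37 Hox genes, 1 passed (Hoxa7, 0.91). Of 64 limb and mesenchyme regulators, 10 passed (15.6%), 6 higher and 4 lower, of which Ebf2 (0.97), En1 (−0.71), Foxp1 (−0.54) and Pax9 (0.62) had the smallest p. Of 28 imprinted genes, 3 passed, all lower and all of the Dlk1 to Dio3 domain (Meg3, 114, 104 and 107 CPM in 61Q/Q and 95.1, 69.6 and 59.03 in 61R/R, −0.54, Rian, −0.23, and Rtl1, −0.55). Igf2 (0.76, adjusted p = 0.0771) and H19 (0.97, adjusted p = 0.061) did not pass. Of 16 retinoic acid genes, 5 fell (31.2%), with the retinaldehyde dehydrogenase Aldh1a3 at 16.9, 8.99 and 13.04 CPM in 61Q/Q and 7.18, 2.12 and 1.499 in 61R/R (−1.85, and −2.84 without 61R/R replicate 1). Of 11 Hedgehog genes, 0 passed with edgeR at the adjusted threshold and 1 had an unadjusted p under 0.05. Single libraries moved these counts as well, along with the count over all genes. Leaving out 61Q/Q replicate 2 gave 6 higher and 3 lower cytokine genes, 8 and 9 limb and mesenchyme regulators and 2 and 4 imprinted genes, and leaving out 61R/R replicate 1 gave 4 and 4 cytokine genes and 1 and 6 imprinted genes. Over all genes, 4538 of 15986 passed in the first of these fits and 4358 of 15988 in the second. Those are larger shares than in the lists just named.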

How the data were processed

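MEFs of the genotypes 61R/R and 61Q/Q (3 libraries each) were compared in a table that also held 61H/H and 61P/P. The deposited file held raw counts per gene, which the authors made from ribosome-depleted, stranded total RNA libraries. The submitters' processing notes name STAR, mm10, Picard 2.17.11, featureCounts and DESeq2, and the strand setting of the counting is not given in the sources used here. Whether reads of overlapping antisense genes were separated is therefore not known. The counts were used as deposited, with 74585225 to 86641284 per library. Of 24419 genes, 4035 were at 0 in every library and 25 had symbols turned into dates, which held 0.232% of counts. The latter stayed in the totals.

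Genes were kept by filterByExpr (15759 genes), scaled by TMM and tested with the quasi-likelihood F test of edgeR 4.0.16 in R 4.3.3, in one model of all 12 libraries with a mean per genotype. p-values were adjusted by Benjamini-Hochberg over all genes tested. The biological coefficient of variation was 15.7%. CPM were computed with edgeR, and log2 CPM used a prior count of 2. p-values measure the spread between these libraries. On simulated counts of 15581 genes, the fit of 61R/R against 61Q/Q recovered 87% of 100 genes changed 2-fold and 98% of 100 changed 4-fold. There were 8 false calls. The changed genes were all above 1 CPM. Simulated libraries of a genotype shared 1 mean per gene, with no library placed near the other genotype. The rates therefore do not carry over to the real libraries. Alternatives were DESeq2 1.42.0, limma-voom (limma 3.58.1), RLE and upper quartile scaling, other filters, other sets of libraries, a replicate block and an embryo sex block.

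The members and gene lists were chosen with earlier results of these data known. By rule, the text names Nras and the RAS, RAF and feedback inhibitor genes, the 12 largest rises and falls among called genes without overlap and at least 1 CPM in the higher group, the 10 largest gains and losses in CPM, and, from each list, at most 4 members ranked by p. Predicted genes, Riken clones and pseudogenes were left out of the ranked parts. Other genes were named after their values were seen. They are Acan, Adamts12, Aif1, Angpt1, Ankrd1, Areg, Asns, Atf4, Bax, Btc, Cdkn1a, Cdkn2a, Cenpa, Chac1, Col3a1, Ctgf, Ddit3, Dkk3, Egfr, Egr1, Egr2, Elk1, Etv4, Fas, Fgf1, Fgf13, Fgf5, Fgf7, Fgf9, Fgfr2, Flt4, Fos, H19, Hes1, Hey1, Ier5, Igf1, Igf1r, Igf2, Inhba, Itga1, Itgb5, Jag1, Jun, Junb, Klf4, Kremen1, Krt18, Matn2, Mcm5, Met, Mki67, Myc, Myl9, Nkd2, Nrg1, Ntf3, Pdgfd, Phgdh, Phlda1, Prg4, Psat1, Rasal3, Shc1, Sos1, Tgfb1, Tgfb2, Tgfb3, Tgfbr2, Trib3, Ttk, Vegfa, Vegfb, Wnt16 and Wnt5a. A gene held by several lists counts in each. Some items that the rule selects are not reported here. The gene model of Nras came from GENCODE vM21 and promoter sequences from RefSeq (GRCm38.p6).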

Additional observations from a re-analysis of the deposited data

How the results depend on the processing

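With edgeR, the 616 genes called higher and 613 called lower became 0 and 0 when only the 6 libraries of the comparison were fitted (5170 genes at an unadjusted p under 0.05), and 0 and 0 when tested against a 1.5-fold change (968 at an unadjusted p under 0.05). An adjusted p alone gave 1486 and 1511. Leaving out 1 library at a time gave 0 to 1039 higher and 0 to 1083 lower, with 0 and 0 in each of the fits that lacked replicate 1 or replicate 3 of 61Q/Q, or replicate 2 or replicate 3 of 61R/R. The fit that lacked both 61Q/Q replicate 2 and 61R/R replicate 1 gave 1274 and 1309. The cause was not tested. DESeq2, limma-voom, RLE, upper quartile scaling, both filters and the embryo sex block gave 467 to 747 higher and 495 to 833 lower. Deviations of same-numbered libraries correlated at 0.03, 0.07 and 0.03, and those of differently numbered libraries at −0.24 to 0.20. No pairing by number was seen, but 3 libraries per genotype are too few to exclude it. The replicate block gave 645 and 695. Of the genes named, 5 near 0 changed sign in some of the settings that left libraries out. Shoc2 ranged from −0.073 without 61Q/Q replicate 2 to 0.011 without 61Q/Q replicate 1 on the log2 scale. Cdkn2a ranged from −0.16 without 61Q/Q replicate 2 to 0.25 without 61Q/Q replicate 3, and Psat1 from −0.11 without 61Q/Q replicate 1 to 0.037 without 61Q/Q replicate 2. Fos ranged from −0.17, in the fit lacking 61Q/Q replicate 2 along with 61R/R replicate 1, to 0.12 without 61R/R replicate 3. Ankrd1 ranged from −0.13 without 61R/R replicate 3 to 0.050 without 61R/R replicate 2.

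With 3 libraries per genotype, of which 1 in each lay near the other genotype, the number of calls depended on which libraries were fitted. Counting error was small at these totals, except in genes under about 1 CPM.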

Other observations

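Called genes were spread over the genome. The share called was 5.54% (chromosome 11) to 13.1% (chromosome 13) over the autosomes and X. On chromosome 13, 58 of 619 genes tested were higher and 23 lower, and 36 of those called there were histone genes. Within 1 megabase of Nras, 8.7% of 23 genes tested were called, within 2 megabases 10.5% of 38, within 5 megabases 5.88% of 85 and within 10 megabases 9.39% of 213, beside 7.8% of all genes. The called genes nearest to Nras were Ptpn22, higher, and Tspan2, lower.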
